A study of Mus musculus with 12 samples.

Results

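The difference between vectors in the response to 4-hydroxytamoxifen (4-OHT) was measured on all 12 arrays of the series. For each gene it is the change under 4-OHT in PUER cells carrying an shRNA against Hnrnpa0 minus the change in cells carrying the control vector. PUER is a mouse myeloid line that lacks its own PU.1, makes instead a PU.1 protein joined to the hormone-binding region of the estrogen receptor, and grows with IL-3. Every group shares that background, GFP sorting for a retroviral vector and IL-3 medium. The 4 groups of 3 arrays were control cells before 4-OHT, control cells after 24 h in 2 nM 4-OHT, Hnrnpa0 shRNA cells before it, and Hnrnpa0 shRNA cells after the same treatment. Each vector was tested in 3 experiments with clones of its own, labelled A, B and C; the labels name no second shRNA, so clone, shRNA and vector effects cannot be told apart. Vehicle appears in the protocol, and no array of vehicle-treated cells was analysed here. Levels are log2 signal minus the array's 75th percentile. Members are the 12764 genes, of 15064 tested, whose tested probe was well above background on all 12 arrays. Among them, 104 rose strongly and 99 fell strongly, defined as a response averaged over both vectors of at least 2 in log2 (4-fold).

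PU.1, encoded by Spi1, is an ETS transcription factor that binds the purine-rich PU box and drives macrophage and neutrophil genes. In PUER cells 4-OHT releases the fusion protein into the nucleus, and the cells leave the progenitor state and mature. The protein Hnrnpa0 binds AU-rich stretches of messenger RNAs, and its human gene lies in a chromosome region lost in some myeloid neoplasms. The comparison addresses whether cells with less Hnrnpa0 answer PU.1 activation in the same way.

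The shRNA cells after 4-OHT were the brightest group and had the narrowest signal range. The slope of the spike-in spots averaged between 1.087 and 1.096 in the 4 groups, and the range from the 5th to the 95th percentile of the members averaged 8.46 in shRNA cells after 4-OHT against 8.66 to 8.77 in the other groups. The 75th percentile averaged 2265 intensity units in shRNA cells after 4-OHT and 1569 to 1764 in the others, and 6.17% of members were saturated there against 4.90% to 5.12%. With such shares saturated, the 95th percentile of the members lies close to the scanner's ceiling, so range and brightness are not separate measures. Of 946 members saturated on at least 1 array, 430 were saturated on all 12. Those 430 had a median difference between responses of -0.178, against 0.011 over the 11818 members saturated on no array. A saturated signal is at the scanner's ceiling, so saturation is named below beside some of the genes it touches. Its part in the results was tested only by leaving such genes out. Within a treatment the vectors shared no slide, so slide and vector cannot be told apart there. Of 10 myeloid markers 9 were above background on all 12 arrays; the Ptprc probe was not before 4-OHT, in either vector. Of the marker lists of other lineages, 3 to 4 of 8 erythroid, 3 to 4 of 10 megakaryocyte, 3 to 4 of 9 T cell and 2 to 4 of 10 B cell genes were above background on all 3 arrays of a group. Those above background in no group included Cd3g and Cd8a (T cell), Pax5 and Ms4a1 (B cell), Gata1 (erythroid), and Pf4 and Itga2b (megakaryocyte). The summed erythroid signal, relative to the 75th percentile, was 12.2 to 13.2 in shRNA cells after 4-OHT, against 9.03 to 9.60 in control cells after it, and 8.54 to 9.22 (control) and 8.82 to 11.8 (shRNA) before it; its part in the results was not tested.

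Hnrnpa0 itself (probe at mm7 chromosome 13, 57219687 to 57219746) read 3.11, 3.06 and 2.98 in control cells before 4-OHT (replicates A, B and C) and 2.6, 2.63 and 2.73 after it. In shRNA cells it read 1.93, 1.57 and 1.0 before and 0.56, 0.65 and 0.46 after. Every shRNA array was below every control array. The responses were -0.39 in control and -0.95 in shRNA cells, a difference of -0.55 (SE 0.26, unadjusted p = 0.0553, adjusted p = 0.943), which did not pass. Over 22 alternative settings this difference ranged from -0.803 to -0.002 and passed in none.

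No single gene passed the test of the difference between responses. With limma over the 15064 genes, 0 had an adjusted p under 0.05 (0%), and 791 had an unadjusted p under 0.05 (5.25%). The lowest adjusted p was 0.282, which among members was that of Tnni2 and Anpep. The 574 members with an unadjusted p under 0.05 were 4.497% of all members, no more than the threshold alone would give. They were picked on the difference itself, so the share of their directions is a description. Of the 574, 417 had the smaller response in shRNA cells (72.6%). Over all members this share was 52.7%. Total RNA from a whole culture was measured, so fewer responding cells and less RNA per responding cell cannot be told apart in any of these values.

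The direction of the difference followed the size of the response. Over all members the median difference was -0.001. Members with a mean response of 0.5 to 1 in log2 had a median difference of -0.047, those with 1 to 2 had -0.104, and the 104 strongly rising ones -0.241 (quartiles -0.394 and -0.103). Members with responses below 0 mirrored them, with medians of 0.047, 0.100 and 0.147 (quartiles -0.020 and 0.351 in the last) over the same steps downward. Among the 9979 members with a mean response within 0.5 of 0 the median was -0.004. In both directions the typical response was thus of smaller size in shRNA cells, by an amount that grew with the response.

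**Figure D1:**
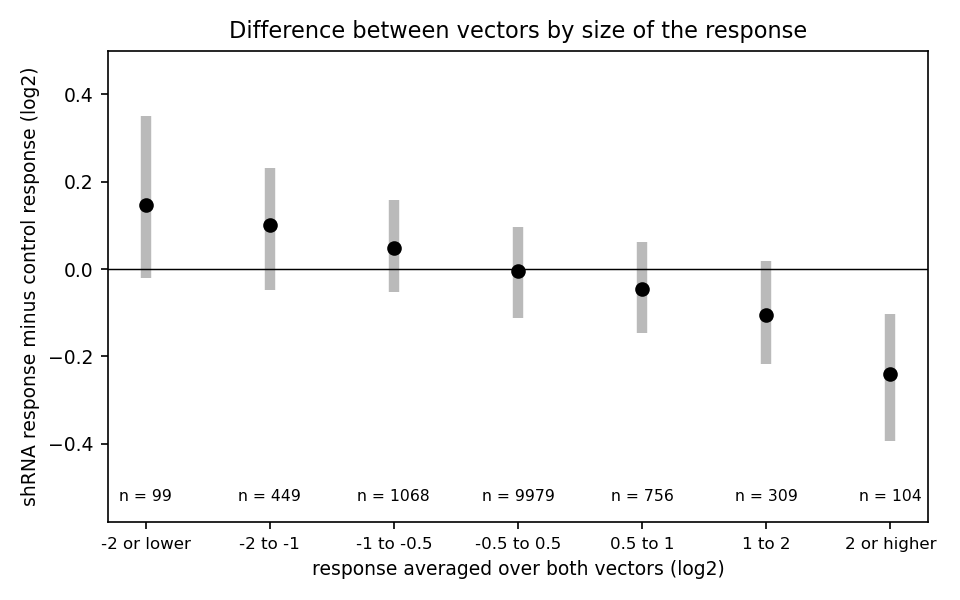
The difference between responses (shRNA minus control, log2) is plotted against the response averaged over both vectors, in 7 steps; points are medians over genes and bars span the quartiles. The medians run from 0.147 among the 99 strongly falling genes to -0.241 among the 104 strongly rising ones and cross 0 where the response is small.

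Across the 12764 members, the responses of the vectors had Pearson r = 0.956, a correlation across genes, which are not independent replicates. The major axis of the shRNA response on the control response had a slope of 0.940. Least squares gave 0.901, and the inverse of the opposite regression gave 0.985, so each slope was below that of equal responses. The difference regressed on the mean response had a slope of -0.061 in all, -0.079 over rising and -0.073 over falling members. Taking control and shRNA arrays of the same letter together, which the labels do not establish as pairs, the slope was -0.034 (A), -0.039 (B) and -0.114 (C). All 9 pairings of a control letter with an shRNA letter gave a slope below 0, from -0.020 to -0.114. Within 0.5 of no response the slope was 0.005. Without the shRNA array of replicate C before 4-OHT the slope over all members was -0.038, and with normexp background correction -0.037.

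**Figure D2:**
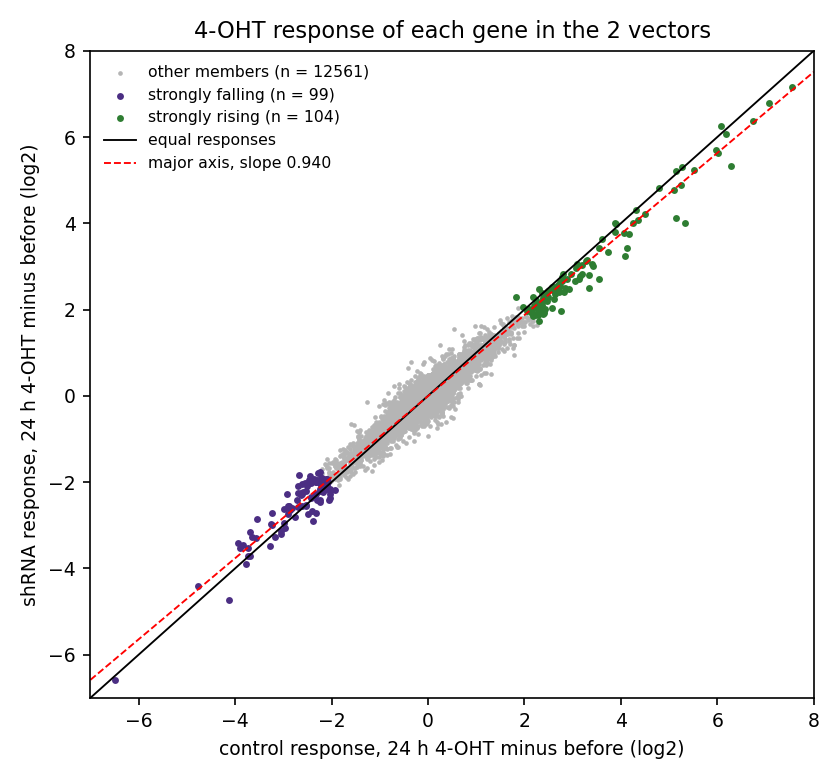
Each point is a gene above background on all 12 arrays, with its 4-OHT response in control cells on the x axis and in shRNA cells on the y axis (both log2). The solid line marks equal responses and the dashed line the major axis, slope 0.940; most of the 104 strongly rising genes lie below the solid line and most of the 99 strongly falling genes above it.

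Strongly rising genes reached a lower level in shRNA cells after 4-OHT and started from overlapping levels. Over the 95 with a value on every array, the mean level before 4-OHT was -1.89, -1.82 and -1.94 in control cells and -1.87, -1.87 and -1.90 in shRNA cells. After 4-OHT it was 1.54, 1.497 and 1.49 in control cells and 1.27, 1.23 and 1.23 in shRNA cells. The vectors overlapped before 4-OHT and did not overlap after it, where the lowest control array stood above the highest shRNA array. The group means moved from -1.88 ± 0.06 to 1.51 ± 0.03 in control cells (SD, n = 3) and from -1.88 ± 0.02 to 1.25 ± 0.02 in shRNA cells.

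The mean response of these genes was smaller in shRNA cells for each letter, by -0.279 (A), -0.215 (B) and -0.296 (C). Gene by gene, 91 of the 104 had the smaller response in shRNA cells (87.5%, against 52.7% of all members). The median response was 2.80 in control and 2.56 in shRNA cells. The median difference between vectors over these genes was -0.006 before 4-OHT and -0.275 after it, against -0.032 and -0.035 over all members. The 3 responses of one vector lay outside the 3 of the other in 35 of the 104, against 13.6% of the members with a response in every letter. In 34 of the 35 the shRNA response was the smaller, against 1097 of the 1648 members that lay apart. An unadjusted p under 0.05 was seen in 26.9% of the 104, against 4.497% of all members.

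The choice of genes used the mean of both responses, and the same order was seen on other measures. Of 21 strongly rising genes with another probe above background on all arrays, 18 had the smaller shRNA response on that other probe too, with a median of -0.245. The same share over the other probes of all members was not taken. Slide 1 held control arrays from both treatments and slide 3 held shRNA arrays from both. Within slide 1 the set's control response was 3.42, and within slide 3 its shRNA response was 3.15, a difference of -0.274; each rests on 1 array in an arm. With the 9 saturated genes left out the median difference was -0.217. With the genes chosen on the arrays of 1 letter and the difference taken from the others, it was -0.219, -0.253 and -0.213 for choices in A, B and C.

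Strongly falling genes also had the smaller median response in shRNA cells, with a smaller difference that varied between letters. Over the 90 with a value on every array, the mean level before 4-OHT was 0.70, 0.78 and 0.66 in control cells and 0.67, 0.63 and 0.57 in shRNA cells. After 4-OHT it was -1.89, -1.93 and -2.05 in control cells and -1.96, -1.90 and -1.87 in shRNA cells. The vectors overlapped at both times. The mean response differed by -0.042 (A), 0.185 (B) and 0.270 (C), so for letter A the mean fall was the larger one in shRNA cells.

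Of the 99, 69 had the smaller response in shRNA cells (69.7%, against 52.7% of all members). By letter the share was 43.6% (A), 71.1% (B) and 81.1% (C). With genes chosen on the arrays of letter C and measured on the others it was 53.2%. The median response was -2.46 in control and -2.27 in shRNA cells. The median difference between vectors was -0.073 before 4-OHT and 0.048 after it, against -0.032 and -0.035 over all members. Part of the difference between responses thus lay in the level before and part in the level after. The 3 responses of one vector lay outside those of the other in 30 of the 99, against 13.6% of the members with a response in every letter. In 26 of these 30 the shRNA response was the smaller, against 1097 of the 1648 members that lay apart. Of 22 strongly falling genes with another probe above background, 15 had the smaller shRNA response on it (median 0.132). Here too the share over the other probes of all members was not taken. Within slides 1 and 3 the responses were -2.60 and -2.48, a difference of 0.122. Without the control array of replicate B before 4-OHT the median difference was 0.083, and without the shRNA array of replicate C after it 0.084, compared with 0.147 on all arrays. It was 0.054 with normexp background correction, 0.064 with the genes chosen on the shRNA response and 0.137 with the 5 saturated genes left out. With genes chosen on the arrays of 1 letter and measured on the others it was 0.211, 0.102 and 0.029 for choices in A, B and C.

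**Figure D3:**
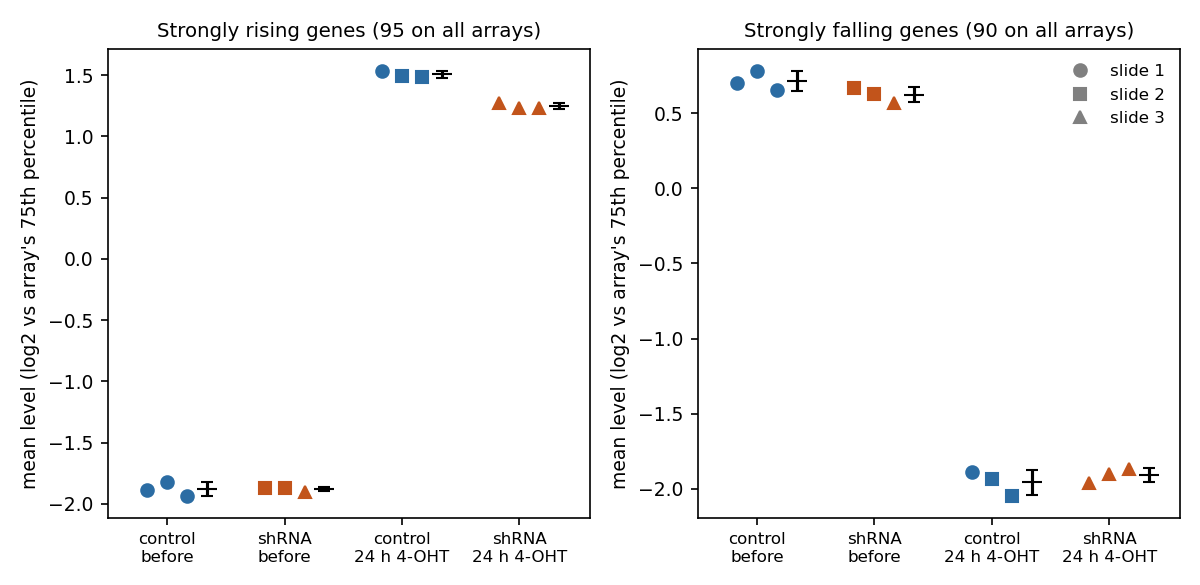
The mean level of the strongly rising genes (left, 95 genes) and strongly falling genes (right, 90 genes) is shown for each array, as log2 relative to the array's 75th percentile; marker shape gives the slide, and bars are the group mean with SD (n = 3). After 4-OHT the rising set lies at 1.49 to 1.54 on the control arrays and 1.23 to 1.27 on the shRNA arrays, while the falling set overlaps between vectors.

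The 10 largest rises saturated on no array were those of Clec4n (Dectin-2, a C-type lectin), Sla (an Src-like adaptor), Sirpb1a and Pilrb1 (paired immunoglobulin-like receptors), Il18 (a cytokine), Tnni2 (a fast-muscle troponin), Slc11a1 (a metal transporter of phagosomes), Tyrobp (DAP12, the adaptor through which several of these receptors signal), Gprc5b (an orphan receptor) and Trem2 (a lipid-sensing receptor). They rose 135 to 35.3-fold in control and 110 to 29.7-fold in shRNA cells. In 7 of the 10 the shRNA response was the smaller; those of Sirpb1a, Tyrobp and Gprc5b were larger by 0.18, 0.04 and 0.07, each within its SE, and the sign turned for Tyrobp and Gprc5b when single arrays were left out. The paired receptors Sirpb1a and Pilrb1 have close copies in the genome, so their probes may read more than 1 gene.

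Trem2 and Il18 show the pattern on single arrays. Trem2 went from -1.64, -1.44 and -1.67 to 3.66, 3.59 and 3.73 in control cells and from -1.78, -1.77 and -2.01 to 3.0, 3.09 and 3.01 in shRNA cells. Each shRNA array was below each control array at both times, and the difference between responses was -0.35 (SE 0.12, unadjusted p = 0.0174, adjusted p = 0.899). Il18 went from -4.19, -4.26 and -4.32 to 1.75, 1.66 and 1.71 in control cells and from -4.3, -4.4 and -4.45 to 1.34, 1.33 and 1.27 in shRNA cells, with a difference of -0.26 (SE 0.09, unadjusted p = 0.0138, adjusted p = 0.897). Its vectors overlapped before 4-OHT and stood apart after it. Tyrobp, for contrast, rose by 5.27 in control and 5.31 in shRNA cells, a difference of 0.04 (SE 0.26).

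The 6 most negative differences among members with at least a 2-fold mean response, separate responses and no saturation were all in strongly rising genes. They were Rab3il1, Cyp2a4, Tnni2, Procr, Anpep and P2ry6. This choice used the difference itself, so the values are a description.

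Rab3il1, which encodes an exchange factor of Rab GTPases (probe at mm7 chromosome 19, 9715154 to 9715213), read -3.61, -4.0 and -4.31 in control and -3.25, -2.59 and -2.27 in shRNA cells before 4-OHT. After it the readings were 1.48, 1.24 and 1.37 and 1.26, 1.24 and 1.43. The shRNA arrays were the higher ones before 4-OHT and overlapped with control afterwards, so the difference of -1.32 (SE 0.33, unadjusted p = 0.00234, adjusted p = 0.674) lay in the starting level.

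In Anpep and P2ry6 the vectors overlapped before 4-OHT and stood apart after it, and in Tnni2 and Procr they stood apart at both times, in opposite directions. Anpep (aminopeptidase N, the CD13 antigen of myeloid cells; mm7 chromosome 7, 75690568 to 75690627) read -3.03, -2.79 and -2.84 in control and -2.99, -2.79 and -2.8 in shRNA cells before 4-OHT, and 1.06, 1.26 and 1.26 against 0.47, 0.38 and 0.31 after it. The vectors overlapped before 4-OHT and were apart by 0.81 after it, and the rise was 16.9-fold in control and 9.45-fold in shRNA cells. The difference was -0.84 (SE 0.13, unadjusted p = 7.49e-05, adjusted p = 0.282).

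P2ry6, a receptor for extracellular UDP (mm7 chromosome 7, 96983881 to 96983940), read -3.17, -3.11 and -3.32 and -2.92, -3.21 and -3.28 before 4-OHT in control and shRNA cells. It read 0.14, 0.11 and 0.16 and -0.54, -0.64 and -0.71 after it, a difference between responses of -0.83 (SE 0.14, unadjusted p = 0.000133, adjusted p = 0.332). It rose 10.1-fold in control and 5.69-fold in shRNA cells, from overlapping levels to levels apart by 0.76.

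Tnni2 (mm7 chromosome 7, 138871616 to 138871675) went from -3.64, -3.45 and -3.73 to 2.81, 2.67 and 2.54 in control cells and from -3.37, -3.25 and -3.25 to 2.12, 2.02 and 1.99 in shRNA cells. The shRNA arrays were above every control array before 4-OHT and below every control array after it. Its difference was -0.95 (SE 0.13, unadjusted p = 2.63e-05, adjusted p = 0.282), the lowest p of the table; with quantile normalization it passed (adjusted p = 0.0423).

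Procr, the endothelial protein C receptor (mm7 chromosome 2, 155496067 to 155496126), rose by 3.56 in control and 2.71 in shRNA cells, a difference of -0.85 (SE 0.25). Its shRNA arrays stood 0.21 above control on average before 4-OHT and after it read -0.24, -0.42 and -0.99, below the control arrays at 0.31, -0.07 and 0.01. Cyp2a4, a steroid-metabolising cytochrome P450 (mm7 chromosome 7, 23212199 to 23212258), rose by 5.15 in control and 4.13 in shRNA cells, a difference of -1.02 (SE 0.43). Cyp2a5 is a close copy, and the probes may read both; its own probe gave -0.31.

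**Figure D4:**
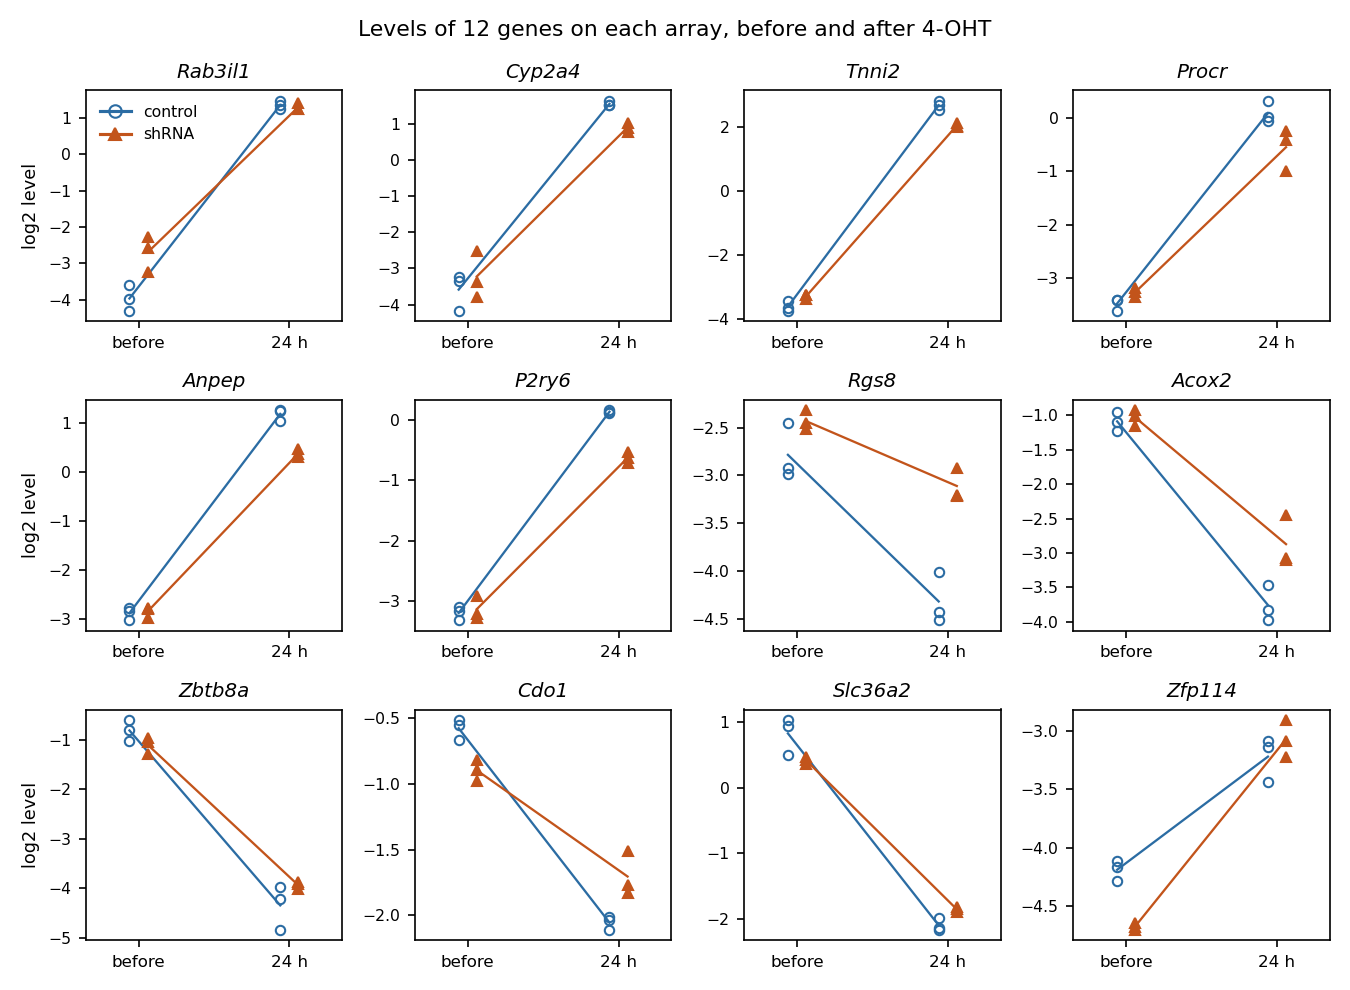
Levels (log2 relative to each array's 75th percentile) of the 12 genes chosen for the largest differences between responses are shown on each array before and after 24 h of 4-OHT; circles are control and triangles shRNA arrays, and lines join group means. In the first 6 panels the shRNA line rises less steeply, in the next 5 it falls less steeply, and in Zfp114 it rises more steeply.

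Since PU.1 acts through the PU box, the promoters of the members were searched for its letters, GAGGAA, on both strands, overlaps allowed, in the window of 250 bases before to 50 after each gene's most upstream RefSeq start (GRCm38.p6). Of the strongly rising members 78 of 104 were in the promoter table, and 34 held the letters (43.6%). The share was 31% of the 216 matched members that rose 2 to 4-fold, 25.8% of 6774 with a mean response within 0.5 of 0, 32.6% of 301 that fell 2 to 4-fold and 21.9% of 73 strongly falling ones. It was 26% of the 8652 members and 28.3% of the 27025 genes in the table. Within the strongly rising genes, the median difference between responses was -0.267 in the 34 with the letters (30 smaller in shRNA cells) and -0.179 in the 44 without (39 smaller). The group medians had the other order. They were 2.796 in control and 2.739 in shRNA cells with the letters, and 2.744 and 2.492 without. Among strongly falling genes the median difference was 0.078 in the 16 with the letters (11 smaller) and 0.152 in the 57 without (39 smaller). A match is a description of the letters, not of a bound site.

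Of the genes named for the largest responses or differences, 19 had a window and 5 held the letters. All 5 are shown to let the letters be seen beside the responses, with matches in capitals, and Anpep as 1 of the 14 without. They run 5′ to 3′ on the gene's strand. The match began 152 bases before the start in Slc11a1 and 176 in Rab3il1, and, on the opposite strand, 40 in Trem2 and 196 in Cyp2a4. Fbp1, one of the 10 largest falls, held 3 matches, the most of these genes.
Slc11a1 (chr1:74374953-74375252, plus strand): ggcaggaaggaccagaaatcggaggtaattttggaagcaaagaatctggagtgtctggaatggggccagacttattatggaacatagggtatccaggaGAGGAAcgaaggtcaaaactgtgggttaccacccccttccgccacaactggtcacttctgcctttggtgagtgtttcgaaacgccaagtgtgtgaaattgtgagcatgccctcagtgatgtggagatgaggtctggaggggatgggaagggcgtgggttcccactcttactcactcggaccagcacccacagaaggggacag
Trem2 (chr17:48346151-48346450, plus strand): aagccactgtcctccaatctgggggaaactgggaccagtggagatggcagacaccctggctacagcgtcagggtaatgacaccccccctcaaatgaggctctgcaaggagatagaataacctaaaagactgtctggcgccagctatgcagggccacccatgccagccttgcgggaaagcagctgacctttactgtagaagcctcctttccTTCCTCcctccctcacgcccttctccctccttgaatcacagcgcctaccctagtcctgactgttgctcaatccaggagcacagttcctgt
Rab3il1 (chr19:10001419-10001718, plus strand): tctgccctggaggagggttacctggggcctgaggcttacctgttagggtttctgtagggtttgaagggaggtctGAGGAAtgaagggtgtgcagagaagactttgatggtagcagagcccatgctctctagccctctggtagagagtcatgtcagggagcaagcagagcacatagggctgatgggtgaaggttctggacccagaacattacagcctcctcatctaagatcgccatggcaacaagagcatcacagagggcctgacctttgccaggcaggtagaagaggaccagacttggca
Cyp2a4 (chr7:26306942-26307241, plus strand): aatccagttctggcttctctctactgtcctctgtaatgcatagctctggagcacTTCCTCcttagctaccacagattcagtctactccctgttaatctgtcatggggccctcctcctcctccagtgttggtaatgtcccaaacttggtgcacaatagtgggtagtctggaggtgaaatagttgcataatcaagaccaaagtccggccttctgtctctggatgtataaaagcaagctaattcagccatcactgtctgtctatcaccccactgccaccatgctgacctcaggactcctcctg
Fbp1 (chr13:62888233-62888532, minus strand): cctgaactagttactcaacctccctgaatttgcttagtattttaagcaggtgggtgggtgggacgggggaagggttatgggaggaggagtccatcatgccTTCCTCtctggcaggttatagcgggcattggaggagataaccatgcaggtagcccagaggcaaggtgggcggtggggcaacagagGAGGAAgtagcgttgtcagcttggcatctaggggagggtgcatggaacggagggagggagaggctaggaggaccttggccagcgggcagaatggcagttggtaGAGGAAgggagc
Anpep (chr7:79848161-79848460, minus strand): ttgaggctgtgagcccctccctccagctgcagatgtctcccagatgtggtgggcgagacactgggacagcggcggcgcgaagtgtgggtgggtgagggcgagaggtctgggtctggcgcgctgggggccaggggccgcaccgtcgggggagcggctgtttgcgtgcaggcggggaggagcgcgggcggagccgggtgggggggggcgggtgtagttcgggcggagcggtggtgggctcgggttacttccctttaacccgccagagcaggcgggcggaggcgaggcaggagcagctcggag
The rising genes shown rose 45.5-fold (Slc11a1), 37.8-fold (Trem2), 40.3-fold (Rab3il1), 35.5-fold (Cyp2a4) and 16.9-fold (Anpep) in control cells. In shRNA cells they rose 38.0-fold, 29.7-fold, 16.1-fold, 17.5-fold and 9.45-fold in the same order. Fbp1 fell 13.2-fold in control and 11.6-fold in shRNA cells. Rab3il1, Cyp2a4 and Anpep were chosen for their difference, so their order between vectors says nothing about the letters.

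The 10 largest falls saturated on no array were those of Tmem119 (a membrane protein), Glod5 (of the glyoxalase family), Bcar1 (the adhesion adaptor p130Cas), Tgm2 (a transglutaminase), Rapgef3 (Epac1, a cAMP-activated exchange factor), Dok7 (a kinase adaptor), Dock9 (an exchange factor of Cdc42), Tnfsf13b (the B cell cytokine BAFF), Fbp1 (of gluconeogenesis) and Lypd6b. They fell 90.3 to 11.8-fold in control and 95.6 to 9.88-fold in shRNA cells. The fall was smaller in shRNA cells in 6 of the 10, with differences between 0.20 and 0.54. It was larger for Tmem119 (-0.08), Tgm2 (-0.13), Dok7 (-0.02) and Bcar1. The sign turned under at least 1 alternative for Tmem119, Tgm2, Dok7, Glod5 and Fbp1.

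Bcar1 (mm7 chromosome 8, 110310813 to 110310872) ran against the set. It went from 0.07, -0.07 and -0.34 to -3.97, -4.49 and -4.26 in control cells and from 0.07, 0.00 and -0.05 to -4.84, -4.81 and -4.51 in shRNA cells. Before 4-OHT the vectors overlapped, and after it every shRNA array was below every control array, a difference of -0.59 (SE 0.21, unadjusted p = 0.0165, adjusted p = 0.899). Dock9 (mm7 chromosome 14, 115946675 to 115946734) moved the other way, from 1.5, 1.29 and 1.42 to -2.48, -2.67 and -2.48 in control cells and from 1.57, 1.42 and 1.08 to -2.23, -1.95 and -1.96 in shRNA cells. It stayed higher in shRNA cells after 4-OHT, a difference of 0.54 (SE 0.18, unadjusted p = 0.0143, adjusted p = 0.897).

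The 6 most positive differences, chosen as above, were those of Rgs8, Acox2, Zbtb8a, Cdo1, Slc36a2 and Zfp114. Acox2, a peroxisomal acyl-CoA oxidase (mm7 chromosome 14, 6034599 to 6038988), read -1.09, -1.22 and -0.94 in control and -1.16, -1.0 and -0.93 in shRNA cells before 4-OHT. After it the readings were -3.83, -3.46 and -3.98 and -3.1, -2.45 and -3.07, a fall of 6.36-fold against 3.59-fold and a difference of 0.83 (SE 0.26, unadjusted p = 0.00921, adjusted p = 0.848). The vectors overlapped before 4-OHT, and the shRNA arrays stayed higher after it.

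Rgs8, a regulator of G protein signalling (mm7 chromosome 1, 153658547 to 153658606), responded by -1.53 in control and -0.68 in shRNA cells, and its shRNA arrays averaged 0.35 higher before 4-OHT, with overlap, and 1.21 higher after it, without; the difference was 0.85 (SE 0.23). Cdo1, cysteine dioxygenase, responded by -1.48 in control and -0.81 in shRNA cells. It started 0.32 lower and ended 0.35 higher in shRNA cells, a difference of 0.67 (SE 0.13, unadjusted p = 0.000331, adjusted p = 0.332). The amino acid transporter gene Slc36a2 responded by -2.92 in control and -2.27 in shRNA cells and the zinc finger gene Zbtb8a by -3.54 in control and -2.84 in shRNA cells; their differences were 0.65 (SE 0.17) and 0.69 (SE 0.28). Zfp114, another zinc finger gene, was the one riser of the 6, at 0.97 in control and 1.61 in shRNA cells. Its shRNA arrays started lower, at -4.68, -4.71 and -4.65 against -4.12, -4.29 and -4.17, and overlapped with control after 4-OHT, a difference of 0.64 (SE 0.15).

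Exceptions to the common direction were 13 strongly rising and 30 strongly falling genes. In the rising set the larger shRNA responses reached 0.476, for the Schlafen pseudogene Slfn10-ps, and the others were 0.18 or lower; in the falling set the most negative difference was that of Bcar1. Slfn10-ps was singled out after its values were seen. Around the threshold of 4-fold, the lowest members inside the rising set were Plek (mean response 2.01, difference -0.09) and Cyp4a31 (2.01, 0.09), and the highest outside it Fcer1g (1.96, -0.43) and Rassf6 (1.95, -0.30). In the falling set Syde1 and Car12 lay just inside (-2.005 and -2.008, differences 0.17 and 0.48) and an unnamed transcript and Itih5 just outside (-1.993 and -1.988, 0.05 and 0.11). Another 153 rising and 92 falling genes had a mean response this large in the whole table and were not above background on all arrays. Their differences are not given here.

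Fixed regulators of the myeloid fate were read next. Gfi1, a repressor needed for granulocyte formation (mm7 chromosome 5, 106894171 to 106894230; saturated on 2 arrays), went from 5.01, 4.96 and 4.99 to 2.65, 2.57 and 2.42 in control cells and from 4.93, 5.04 and 5.09 to 3.15, 3.11 and 3.2 in shRNA cells. The vectors overlapped before 4-OHT, and all 3 shRNA arrays were higher after it. The difference was 0.57 (SE 0.10, unadjusted p = 0.000199, adjusted p = 0.332).

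Kit, the stem cell factor receptor (mm7 chromosome 5, 75074515 to 75074574), went from 2.1, 2.03 and 2.08 to 0.11, 0.15 and 0.19 in control cells and from 2.1, 2.2 and 2.24 to 0.63, 0.72 and 0.56 in shRNA cells. It fell 3.79-fold and 2.92-fold, a difference of 0.38 (SE 0.09, unadjusted p = 0.00187, adjusted p = 0.656), with the shRNA arrays clearly above the control arrays after 4-OHT and the nearest arrays of the vectors almost level before it. Myb, a transcription factor of progenitors, responded by -1.47 in control and -1.1 in shRNA cells, a difference of 0.37 (SE 0.13). The granulocyte genes Elane and Csf3r and the transcription factor Cebpa differed by 0.23, 0.22 and 0.12, all toward the smaller response in shRNA cells. Myc differed by -0.15, toward the larger one, a sign that turned with slide as a block. The Mpo probe was saturated on 10 arrays, so its value is not read.

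Among the macrophage regulators, Egr2, a transcription factor of macrophage differentiation, went from -0.86, -0.38 and -1.15 to 2.14, 1.93 and 1.98 in control and from -1.18, -1.36 and -1.75 to 1.16, 1.01 and 0.80 in shRNA cells. It was lower in every shRNA array at both times, and the difference between responses was -0.40 (SE 0.28, unadjusted p = 0.185, adjusted p = 0.957). Its corepressor gene Nab2 differed by -0.19 (SE 0.21). The integrin gene Itgam (CD11b; mm7 chromosome 7, 124214519 to 124214578) went from -2.48, -2.21 and -2.41 to -0.25, 0.14 and 0.15 in control and from -2.2, -2.01 and -2.29 to -0.13, -0.19 and -0.52 in shRNA cells, 5.22-fold against 3.71-fold, a difference of -0.49 (SE 0.20, unadjusted p = 0.033, adjusted p = 0.931). Its vectors overlapped at both times. The Spi1 probe differed by 0.17 (SE 0.14); whether it reads the fusion transcript is not known. Cd14 differed by -0.21 with 5 arrays saturated, and by 0.074 with quantile normalization. Csf1r was above background on 6 of 12 arrays and is no member, and Egr1 and Cebpe were not in the tested table.

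Gene lists were read for the mean response of their members (tested; 22% of all genes rose and 29.7% fell) and for the difference between vectors, for which 0 members of any list passed. The median difference of a list is a description, to be set against -0.001 over all members and 0.011 over those never saturated. Among the 6892 members whose mean response passed, 60.2% had the smaller response in shRNA cells, the share against which such counts are read. The members named in each list are those of largest mean response, with the response in control cells given first and that in shRNA cells second.

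Of 19 monocyte and macrophage members, 14 rose and none fell. The median response was 1.07 in control and 0.876 in shRNA cells, and 12 of the 14 risers had the smaller response in shRNA cells. The median difference was -0.199, or -0.173 over the 15 never saturated, and -0.229, -0.093 and -0.067 for letters A, B and C. Besides Clec4n and Egr2, the pore-forming Mpeg1 responded by 5.1 and 4.76 and the receptor gene Cd300c2 by 4.17 and 3.75. Among known targets that PU.1 activates, 15 of 23 rose and 4 fell. The median difference was -0.125, or -0.068 over the 17 never saturated, it ranged from -0.165 to -0.031 under other scalings, and by letter it was -0.159 (A), -0.174 (B) and 0.100 (C). Pirb, an inhibitory receptor saturated on 4 arrays, responded by 6.17 and 6.07.

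Of 15 stem and progenitor members, 13 fell and none rose, and 9 of the 13 had the smaller fall in shRNA cells. The median response was -0.946 in control and -0.747 in shRNA cells. The median difference was 0.233, from 0.154 to 0.288 under other scalings, and 0.174, 0.325 and 0.182 for letters A, B and C. It was 0.105 with slide as a fixed block and 0.147 without the control array of replicate A before 4-OHT. Hlf, a transcription factor of stem cells, responded by -2.05 and -1.55, and the surface antigen Ly6a by -1.92 and -1.47. Sox4, another transcription factor, had the larger fall in shRNA cells, at -1.51 and -1.68.

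Of 16 early granulocyte and primary granule members, 9 fell and 1 rose. The median difference was 0.050 over all 16, of which 9 were saturated on some array, and 0.234 over the 7 that never were, of which 6 had the smaller fall in shRNA cells. The median over all 16 was -0.172 with slide as a fixed block and -0.040 without the control array of replicate C after 4-OHT. Nkg7, a granule membrane protein, responded by -2.7 and -2.1, and the ficolin gene Fcnb nearly alike, by -2.54 and -2.56. In the late granulocyte list 4 of 12 rose and 5 fell, with a median difference of -0.124 over all and 0.092 over the 8 never saturated; without 1 array it ranged from -0.195 to 0.066. Camp, the cathelicidin of secondary granules, responded by -3.27 and -2.98, and the collagenase gene Mmp8 by 3.15 and 2.77.

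Cholesterol synthesis genes fell together, and 19 of the 21 that fell had the smaller fall in shRNA cells. The other 3 of the 24 members did not pass. The median response was -0.668 in control and -0.466 in shRNA cells. The median difference was 0.151, or 0.184 over the 20 never saturated. It was -0.065 (A), 0.091 (B) and 0.267 (C) by letter, and -0.017 with slide as a fixed block. Mvd, a decarboxylase of the mevalonate pathway, responded by -1.0 and -0.73, the sterol sensor gene Insig1 by -1.02 and -0.91, and the sterol reductase gene Tm7sf2 by -1.14 and -1.09.

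Of 26 glycolysis and hypoxia members 18 fell and none rose, and 5 of the 18 had the smaller fall in shRNA cells. Median responses were -0.764 in control and -0.773 in shRNA cells, with a median difference of -0.160, or -0.043 over the 13 never saturated; without the control array of replicate B before 4-OHT it was -0.052. The carbonic anhydrase gene Car9 responded by -3.04 and -3.19 and the growth factor gene Vegfa by -2.16 and -2.17. Of 21 cytokine and immediate early members listed for AU-rich elements in their messages, the kind of element that Hnrnpa0 binds, 16 fell and 2 rose. None was saturated, and 6 of these 18 had the smaller response in shRNA cells. Median responses were -0.907 in control and -1.1 in shRNA cells. The median difference was -0.096, and -0.375 (A), -0.045 (B) and 0.050 (C) by letter. Fosb, an immediate early transcription factor, responded by -2.38 and -2.9, and the cytokine gene Tnf, one of the 2 risers, by 2.73 and 2.65.

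Of 23 genes of AU-rich element binding and hnRNP proteins, 10 fell and none rose, with a median difference of -0.126, or -0.005 over the 13 never saturated. Of 25 lysosome members 15 rose and 3 fell, with a median difference of -0.058, or -0.008 over the 19 never saturated, and 0.008 when arrays were scaled on the percentile of the members alone and -0.311 with slide as a fixed block. Lipa, the lysosomal acid lipase, responded by 1.66 and 1.44. The remaining lists had median differences between -0.147 and 0.096. These were PU.1 and partner transcription factors (-0.147), interferon (-0.057), heat shock (-0.020), G2/M (-0.010), ATF4 and unfolded protein response (0.006), ribosome biogenesis and Myc target (0.056) and G1/S and DNA replication (0.096). Over members never saturated, the medians were -0.173, -0.057, -0.003, 0.022, 0.096, 0.095 and 0.121 in that order. Slide as a fixed block moved the median of all members to -0.076, and those of the interferon, heat shock, G2/M, ATF4, ribosome and G1/S lists to -0.177, -0.223, -0.120, -0.082, -0.127 and -0.098 in that order. It was -0.208 for the AU-rich cytokine list and -0.020 for the late granulocyte list. Without the control array of replicate A after 4-OHT the median of the PU.1 and partner list was 0.007 and that of the AU-rich element binding list -0.032. Of the 28 G2/M members 12 rose and 1 fell, and of the 19 ATF4 and unfolded protein response members 13 fell.

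**Figure D5:**
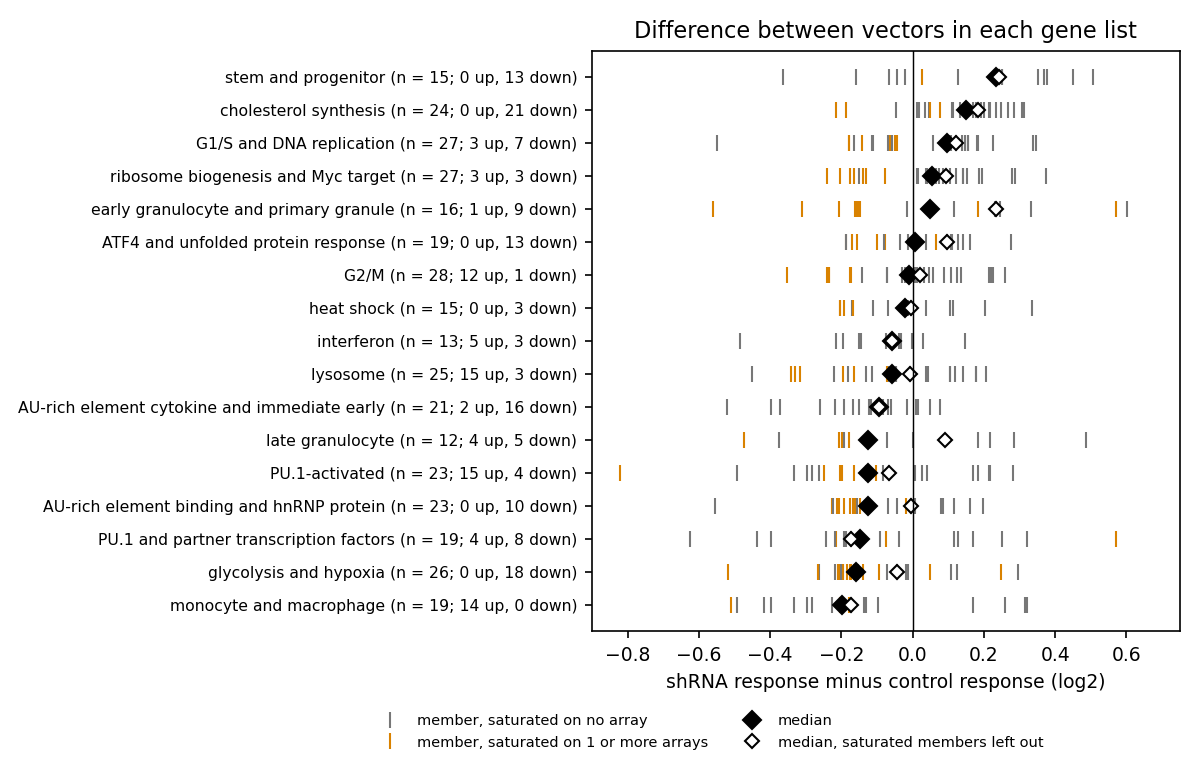
For each gene list, ticks give the difference between responses (shRNA minus control, log2) of every member, in orange where the gene was saturated on 1 or more arrays; filled diamonds are medians and open diamonds medians without saturated members. The stem and progenitor and cholesterol lists, which fell, have medians of 0.233 and 0.151 (the latter -0.017 with slide as a fixed block), and the monocyte and macrophage list, which rose, -0.199.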

How the data were processed

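RNA from 12 cultures was hybridised to 1-colour Agilent mouse arrays. The authors' deposited scanner files hold the processed intensity of each spot, background-corrected by Agilent Feature Extraction 9.5.3.1 per the file headers (9.5 per the submitters' processing notes). The deposited series matrix holds the same processed intensity, unscaled and rounded, and served as an alternative. From the processed intensity, log2 values less each array's 75th percentile were computed, control spots and outlier spots left out and spots of a probe averaged. Each gene is represented by its brightest probe above background on at least 3 of 12 arrays. Probe positions are those of the files (mm7). The 4 group means were fitted with limma 3.58.1 (R 4.3.3), and p-values adjusted by Benjamini-Hochberg over 15064 genes. The procedure was tested on simulated data with independent noise on each array. Such data hold no slide or clone effects, so that test cannot speak to them. Strongly responding genes were chosen on the mean of both responses.

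Named genes were the 10 largest rises and falls saturated on no array, the 6 most positive and 6 most negative differences among members of at least 2-fold mean response whose same-letter responses lay apart, fixed regulators, and the members of largest mean response in each list. The members and lists were chosen with earlier results of these data known. Replicates are experiments with separate clones, and p-values measure the spread between them; 3 arrays a group limit the precision. Alternatives covered background correction, scaling, filters, slide and letter blocks, choice of strong genes and each array left out. Promoters are from RefSeq (GRCm38.p6).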

Additional observations from a re-analysis of the deposited data

How the results depend on the processing

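The median differences over strongly rising and strongly falling genes and the slope kept their sign in every alternative run. Single letters were not among these runs. By letter the falling median was -0.034 (A), 0.162 (B) and 0.229 (C), so its sign turned for A. The number of genes past the threshold of the difference was 0 in the fit as reported, 1 with quantile normalization (Tnni2, -0.94, adjusted p = 0.0423 by limma), 2 with slide as a fixed block (Foxred2, 1.60, and Gpr155, 1.90, no member) and 1 with every probe tested (a Cybb probe, 1.88, no member). The unadjusted count ranged from 569 to 1816. The median over rising genes was -0.165 with normexp, -0.181 with the percentile over members and -0.132 at a 2-fold threshold. The share of falling genes with the smaller shRNA response was lowest with genes chosen in letter C and measured on the others, 53.2%. It was highest with genes chosen in letter A in the same way, 77.9%. The share of rising genes with the smaller shRNA response was 84.3% with normexp, 81.9% with quantile normalization, 82.7% with the percentile over members, 79.6% with slide as a fixed block, 74.3% with genes above background on at least 3 arrays, 90.2% and 84.4% with genes chosen on the control or the shRNA response, 75.1% at the 2-fold threshold, and 91.4% with scaling on unsaturated members of little response, an alternative chosen after seeing the data. The cause was not tested.

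With 1 array left out, the count ranged from 0 to 1 (Prlhr without control replicate C after 4-OHT, Adgrl3 without shRNA replicate C before it, neither a member), the rising median from -0.258 to -0.216, the falling median from 0.083 to 0.194, the slope from -0.078 to -0.038, and the shares from 84.2% to 90.3% (rising) and 65% to 76% (falling). Among 1012 values of 46 named genes, 24 in 9 genes changed sign, all of them short of the threshold. Glod5 was -0.085 and Fbp1 -0.034 with normexp, Cd14 0.074 with quantile normalization and Dok7 0.032 with the percentile over members. With slide as a fixed block Dok7 was 0.130, Myc 0.242, Tgm2 0.018 and Tmem119 0.029, and as a random block Dok7 0.062 and Myc 0.069. With 1 array left out, Dok7 ranged from -0.151 to 0.116, Gprc5b from -0.063 to 0.177, Tgm2 from -0.241 to 0.044, Tmem119 from -0.147 to 0.046 and Tyrobp from -0.121 to 0.197. Within a vector, the arrays of a letter before and after 4-OHT deviated together with correlations from 0.039 to 0.359. The main fit did not take the letters as pairs, while the counts of responses lying apart did. With the replicate block by letter 0 genes passed, 993 had an unadjusted p under 0.05, and the medians were -0.253 and 0.146. With the block by vector and letter 0 passed (1077 unadjusted). Saturated signals and signals near background limit what can be measured at both ends.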
